A study of Homo sapiens with 3 samples.

Results

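The broad EP300 regions described here are stretches of chromatin that were covered by an EP300 peak of 3000 bp or more in each of 2 samples. They were selected on width: deposited peak rows with the same chromosome, start and end were joined into intervals, and an interval of at least 3000 bp was kept where it overlapped, by 1 bp or more, an interval of at least 3000 bp in the other sample. This gave 809 intervals in replicate 1 and 813 in replicate 2, which merged into 802 regions on chromosomes 1 to 22 and X. They were 1.73% (Wilson 95% interval 1.62 to 1.86) of the 46263 regions that held a peak of any width in both samples. Because width chose the regions, their widths, summits, fold enrichments and q-values are given as descriptions without a test.

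The samples came from H9, an established human embryonic stem cell line of wild-type genotype. All were grown in the naive state in PXGL, a medium that blocks MEK, tankyrase and protein kinase C and supplies LIF, on a layer of mouse embryonic fibroblasts. Chromatin was precipitated with an antibody against EP300 in 2 samples, and 1 input sample had no antibody. The labels do not tell whether the EP300 samples were separate cultures, and differences between them may therefore be technical only. There was no treated, primed or mutant group, and the data therefore describe 1 cell state.

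EP300 is a histone acetyltransferase that transcription factors recruit as a coactivator, and it is widely used to find active enhancers. It places acetyl groups on histone H3 and on other proteins, and it is found both at promoters and at distal elements. Sites where many factors bind close together can merge into one wide domain of coactivator, and such domains are known at genes that mark the identity of a cell. Each deposited row is 1 summit, a local maximum of the signal, with its fold enrichment over input as the authors' peak caller gave it.

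The sequence of the regions themselves was not read here, but RefSeq promoter windows of GRCh38.p14 show the sequence at starts near the strongest summits. The 4 windows printed here were picked after their values were seen to show the range of CpG content among broad regions. In each of them the strongest summit of both samples lay within 300 bp of the start, though not always inside the window. At DNMT3A the strongest summits, at 25251921 in replicate 1 and 25251973 in replicate 2, lay outside the printed window. Each window runs 5′ to 3′ from 250 bases before the start to 50 bases after it, and the capitals mark every CG dinucleotide.
SPHK1, chr17:76382954-76383253, plus strand: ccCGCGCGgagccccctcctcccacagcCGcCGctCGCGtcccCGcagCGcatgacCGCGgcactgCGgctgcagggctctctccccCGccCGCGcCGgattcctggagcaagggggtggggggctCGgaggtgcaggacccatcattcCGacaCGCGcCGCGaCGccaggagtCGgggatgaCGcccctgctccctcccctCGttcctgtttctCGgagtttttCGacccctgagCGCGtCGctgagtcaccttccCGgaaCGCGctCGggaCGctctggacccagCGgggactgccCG
PDGFA, chr7:520651-520950, minus strand: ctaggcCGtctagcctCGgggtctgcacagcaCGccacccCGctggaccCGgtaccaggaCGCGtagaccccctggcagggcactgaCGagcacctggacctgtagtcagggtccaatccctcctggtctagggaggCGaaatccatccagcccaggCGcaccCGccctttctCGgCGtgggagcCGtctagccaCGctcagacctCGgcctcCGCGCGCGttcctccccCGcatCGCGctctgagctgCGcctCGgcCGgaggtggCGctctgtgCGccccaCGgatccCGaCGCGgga
DNMT3A, chr2:25252082-25252381, minus strand: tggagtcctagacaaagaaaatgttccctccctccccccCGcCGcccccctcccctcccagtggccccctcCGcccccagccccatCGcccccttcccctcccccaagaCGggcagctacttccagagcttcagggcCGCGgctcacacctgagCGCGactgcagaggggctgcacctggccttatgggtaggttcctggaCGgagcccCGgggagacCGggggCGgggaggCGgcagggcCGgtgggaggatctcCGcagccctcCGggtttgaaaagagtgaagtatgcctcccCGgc
PIPOX, chr17:29042891-29043190, plus strand: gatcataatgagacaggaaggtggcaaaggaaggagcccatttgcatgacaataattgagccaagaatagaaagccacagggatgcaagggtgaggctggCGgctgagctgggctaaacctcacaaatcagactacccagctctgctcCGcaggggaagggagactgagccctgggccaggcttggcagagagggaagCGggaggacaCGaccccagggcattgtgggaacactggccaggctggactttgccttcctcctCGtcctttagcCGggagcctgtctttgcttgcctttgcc
SPHK1 encodes a kinase that makes sphingosine 1-phosphate. Its window held 38 CG dinucleotides, and the strongest summits lay 57 bp and 22 bp from the start in replicates 1 and 2. PDGFA encodes a chain of platelet-derived growth factor. The window at this start of PDGFA held 32 CG dinucleotides. DNMT3A encodes a de novo DNA methyltransferase, and the window at this internal start held 18. PIPOX encodes a peroxisomal oxidase of the lysine degradation pathway. Its window held only 6 CG dinucleotides, with the strongest summits 113 bp and 168 bp from the start.

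Some broad regions covered microRNA genes known from pluripotent or epithelial cells. The mature sequences from RefSeq are printed 5′ to 3′ with the seed, bases 2 to 8, in capitals, because the seed decides which messenger RNAs a microRNA pairs with.
hsa-miR-200c-3p: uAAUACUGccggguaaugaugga
hsa-miR-141-3p: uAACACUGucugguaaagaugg
hsa-miR-371a-3p: aAGUGCCGccaucuuuugagugu
hsa-miR-372-3p: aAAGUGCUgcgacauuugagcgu
hsa-miR-373-3p: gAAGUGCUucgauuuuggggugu
The first pair belongs to the miR-200 family, which keeps cells epithelial by repressing ZEB1 and ZEB2. Their genes, MIR200C and MIR141, lay in 1 broad region, chr12:6958396-6964406, with widths of 5398 bp (replicate 1) and 6011 bp (replicate 2). Its highest fold enrichment was 19.0 and 15.3. The hairpin of MIR200C lay 1012 bp and 174 bp from the strongest summit. The other 3 come from the miR-371 to miR-373 cluster, which is expressed in pluripotent cells. In this set miR-372-3p and miR-373-3p had the same seed, AAGUGCU. Their region, chr19:53782953-53790290, had widths of 3313 bp (replicate 1) and 7338 bp (replicate 2), with a highest fold enrichment of 7.09 and 7.53. Replicate 1 had 3 summits there and replicate 2 had 8, and the hairpin of MIR373 lay inside the interval of replicate 2 alone. Of 1558 hairpins in the RefSeq table used here, 12 lay in a broad region and 179 in a narrower reproducible region. MIR142, which is abundant in blood cells, was another of the 12, in a region 3526 bp and 3463 bp wide whose highest fold enrichment was 5.97 in replicate 1 and 11.9 in replicate 2.

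Intervals of this width were rare in either list. In replicate 1, 1150 of 65276 intervals (1.76%) reached 3000 bp, and in replicate 2, 1300 of 64896 (2%) did. The median interval was 748 bp and 781 bp wide. Of the wide intervals, 341 in replicate 1 and 487 in replicate 2 had no wide partner in the other sample. In 223 of the 341 and 333 of the 487, the same stretch was called as 2 or more narrower intervals in the other sample. In another 118 and 153 the partner was a single narrower interval, with a median width of 2814.5 bp and 2766 bp. Only 1 wide interval, in replicate 2, had no peak at all in the other sample. Members could be split too: in the region assigned to MIR200B, replicate 2 had 1 interval of 10949 bp with 11 summits, and replicate 1 had a wide interval of 5367 bp followed by narrower ones of 2127 and 2683 bp.

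The rule required 3000 bp in both samples, and among the members it kept, the widths were close for most regions. The median width was 3726.5 bp in replicate 1 (range 3002 to 12905) and 3860.5 bp in replicate 2 (range 3007 to 11070). The wider call was a median of 1.06 times the narrower call. In 508 of 802 regions the widths were within 1.1 times of each other, and in 57 they differed by over 1.5 times. Both edges lay within 500 bp of each other in 532 regions. In 16 regions at least 1 sample held 2 wide intervals, and the width given for a region is that of its wider interval.

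**Figure D1:**
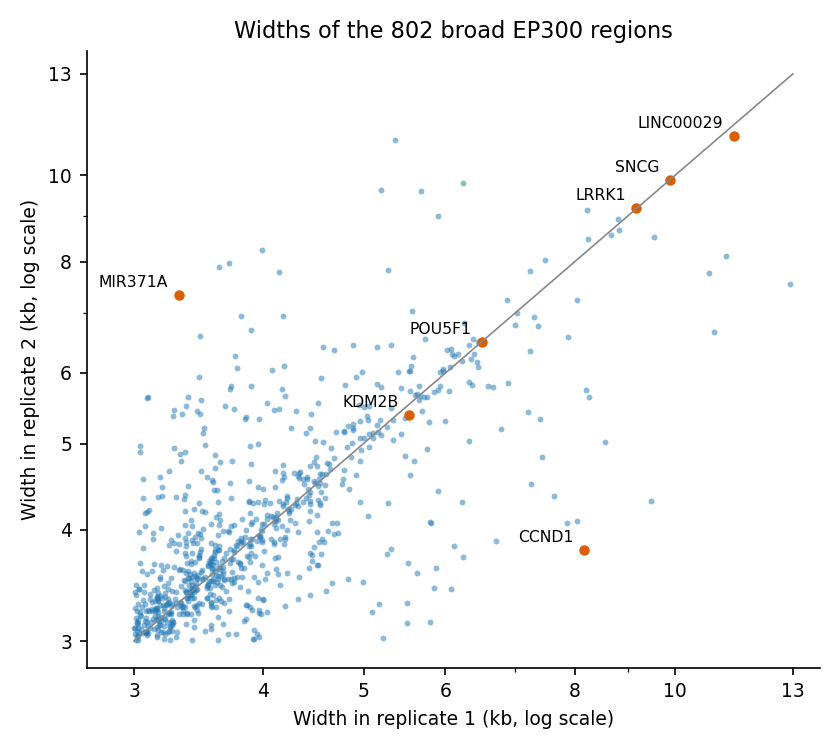
Width of each of the 802 broad regions in replicate 1 (horizontal axis, kb, log scale) against replicate 2 (vertical axis, kb, log scale). Each point is a region, the grey line marks equal widths, and orange points are named; SNCG lies on the line at 9892 and 9873 bp, while CCND1 (8165 and 3794 bp) and MIR371A (3313 and 7338 bp) lie far from it.

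Regions near the limit give its effect. Just inside were ADGRL1, an adhesion receptor gene, at 3002 and 3104 bp, and ARID1A, which encodes a subunit of the BAF chromatin remodelling complex, at 3006 and 3107 bp. Just outside were FBN3, a fibrillin gene, at 2999 and 3074 bp, and LRRC41 at 2998 and 3382 bp. NODAL, the TGF-beta ligand that maintains pluripotency, was also just outside at 2998 and 3331 bp, although its fold enrichment of 25.9 and 28.0 was above that of most members.

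The broad regions were built from several summits. The median number of summits per region was 4 in each sample, with 2 to 16 in replicate 1 and 1 to 13 in replicate 2. In the narrower regions a single summit was the rule, in 74.2% of them in replicate 1 and 75.6% in replicate 2. A wider interval has room for more summits, and the part of width in these numbers was not tested. Neighbouring summits within a broad region were a median of 876 bp and 928.5 bp apart. Of the 3334 summits of replicate 1, 72.7% had a summit of replicate 2 within 200 bp, and of the 3186 summits of replicate 2, 76.1% had one of replicate 1. Most summits were themselves well enriched: 75.1% and 77.3% reached a fold enrichment of 5. The strongest summit of a region was a median of 2.48 times (replicate 1) and 2.47 times (replicate 2) as enriched as its weakest. In 138 regions (17.2%) the samples placed their strongest summits over 1 kb apart. The strongest summits lay within 100 bp of each other in 57.4% of broad and 65.7% of narrower regions.

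POU5F1 is an example of a regular array. This gene encodes OCT4, the central transcription factor of pluripotency, and its region at chr6:31169679-31176192 was 6501 bp and 6492 bp wide. Replicate 1 had 5 summits with fold enrichments of 7.81, 13.5, 12.3, 16.9 and 3.92 from left to right. Replicate 2 had 6, with 8.24, 11.9, 13.5, 14.0, 3.65 and 5.22. The first 4 summits of both samples lay at nearly the same places, 737 and 738 bp, 1760 and 1818 bp, 2921 and 2939 bp, and 3937 and 3926 bp from the left edge. LIN28A, an RNA-binding protein gene that blocks let-7 processing, had a simpler region of 3529 bp and 3441 bp with 2 summits in each sample. The right-hand summit was the higher in both, at 21.0 and 23.9 against 14.5 and 12.5.

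**Figure D2:**
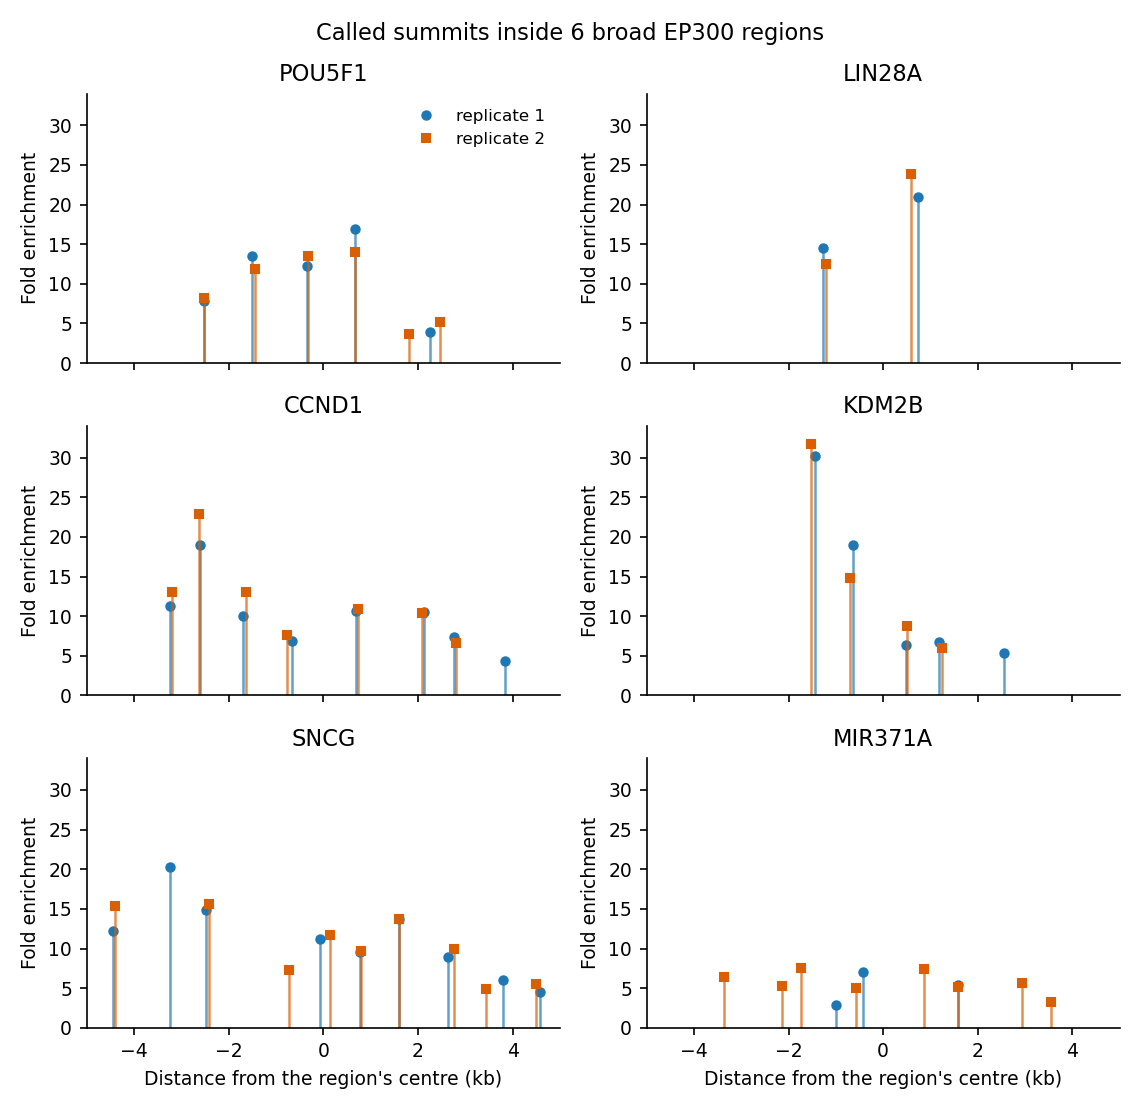
Fold enrichment over input (vertical axis) of every called summit in 6 broad regions, by its distance from the centre of the merged region (horizontal axis, kb), in replicate 1 (blue circles) and replicate 2 (orange squares). The first 4 summits at POU5F1 coincide in both samples, KDM2B has its top summit of 30.2 and 31.7 left of the centre, and the region at MIR371A has 3 summits in replicate 1 and 8 in replicate 2.

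Among the widest regions were several assigned to long non-coding RNA genes and 1 at an endogenous retroviral gene. The widest by its narrower call was assigned to LINC00029, with 11390 bp in replicate 1 and 11070 bp in replicate 2. It covered no RefSeq start of LINC00029, and the start inside was that of LOC105372718. This region had 11 summits in each sample and a highest fold enrichment of 21.6 and 19.8. ERVH48-1 encodes suppressyn, an endogenous retroviral envelope protein that blocks cell fusion. Its region was 8803 bp and 8936 bp wide with 12 and 11 summits. The region at LINC01629 was 8664 bp and 8576 bp wide, but its highest fold enrichment was only 8.79 and 9.38. LINC02907 combined width with height, at 7483 bp and 8035 bp and fold enrichments of 33.3 and 28.6.

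Others of the widest regions were assigned to coding genes by the authors' annotation. SNCG, which encodes gamma-synuclein, had the second widest region at 9892 bp and 9873 bp, with 9 summits in each sample, and the same region covered a start of MMRN2. LRRK1, a kinase gene, followed at 9178 bp and 9180 bp. GABRP, which encodes a subunit of the GABA-A receptor, had 9534 bp and 8521 bp. INF2, a formin gene that acts on actin filaments, had 8239 bp and 8479 bp. The region at NOTCH1, which encodes a receptor of the NOTCH pathway, was 11212 bp in replicate 1. Replicate 2 split it into wide intervals between 136544166 and 136555571, the wider of 8109 bp. SALL1, a zinc finger transcription factor gene, had 7031 bp and 7013 bp, and PDGFA had 7311 bp and 6928 bp. IGSF21 held the widest single interval of all, 12905 bp in replicate 1, where replicate 2 had 2 wide intervals, the wider of 7544 bp. The regions of LRRK1, GABRP and IGSF21 covered no RefSeq start of these genes. The starts inside them were those of LRRK1-AS1, LOC107986473 and LOC124903863, in that order.

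Width and fold enrichment went together only in part. The highest fold enrichment of a broad region had a median of 11.9 (replicate 1) and 12.3 (replicate 2), while the narrower regions had 5.44 and 5.43. No broad region fell in the lowest 4 deciles of fold enrichment. The top decile held 356 broad regions, 44.4% of all of them, yet these were 7.69% of that decile. Among the 100 regions of highest fold enrichment, 14 were broad. Wider intervals have more room for a high summit, and the part of width in these levels was not tested. The broad regions with the highest fold enrichment lay at an intron near ENSG00000214719 (36.3 and 41.8), at SORBS2 (33.9 and 36.7), which encodes a cytoskeletal adaptor, and at PTPRN2 (32.7 and 35.9), a receptor phosphatase gene. KDM2B followed with 30.2 and 31.7.

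**Figure D3:**
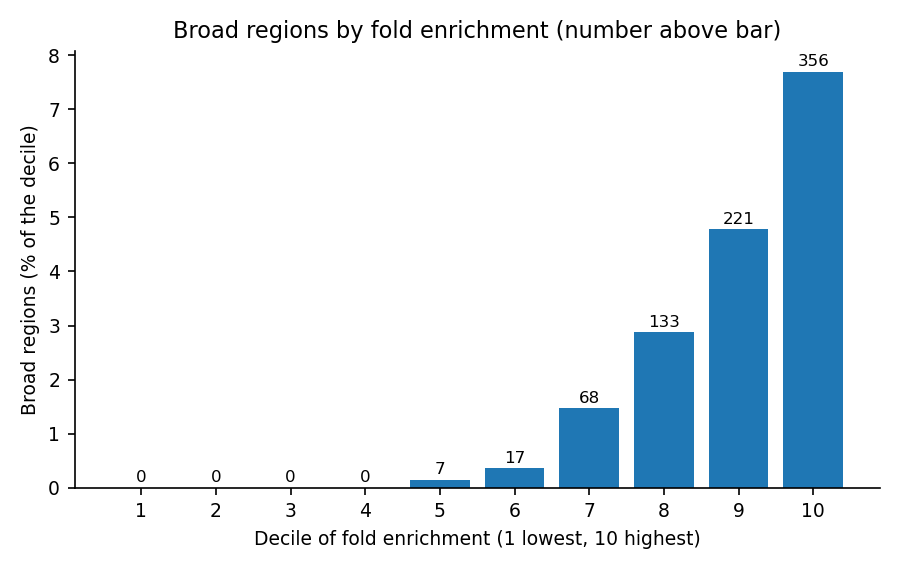
Share of regions that were broad (vertical axis, %) in each decile of fold enrichment of the 46263 reproducible regions (horizontal axis, 1 lowest to 10 highest), with the number of broad regions above each bar. The share rises from 0 in deciles 1 to 4 to 7.69% in decile 10.

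By the authors' annotation, most broad intervals touched a promoter. In replicate 1, 72.4% (Wilson 95% interval 69.2 to 75.4) of the broad regions and 53.9% of the 45461 narrower regions had a promoter class. In replicate 2 the shares were 72.8% and 54.0%. Distal intergenic annotations were found for 16.1% and 15.7% of the broad regions and 21.9% of the narrower ones in each sample, and introns for 7.11% of the broad regions against 19.0% and 18.9%. A wide interval meets a start more often by its length alone, so the strongest summit, a single position, was also measured. It lay within 1 kb of a RefSeq start in 37.8% (34.5 to 41.2) of broad regions in replicate 1 and 37.5% (34.2 to 40.9) in replicate 2. The narrower regions had 32.1% in each. Within 3 kb of a start the shares were 53.9% (replicate 1) and 53.5% (replicate 2) of broad regions, and 38.3% of narrower ones in each. Over 10 kb from any start were 33.5% of broad regions in each sample and 48.2% of narrower ones. These intervals cover counting error only, and neighbouring regions are not independent.

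The order turned around among strongly enriched regions. In the top decile of fold enrichment, the strongest summit lay within 1 kb of a start in 40.2% (35.2 to 45.3) of broad regions in replicate 1 and 41.0% (36.0 to 46.2) in replicate 2. The narrower regions of that decile had 65.5% (64.1 to 66.9) and 65.3% (63.9 to 66.8). Across all reproducible regions the share first grew with width and then declined. In replicate 1 it was 21.5% below 1000 bp, 50.4% from 1000 bp to 2 kb, and 52.3% in wider regions that were not broad. It was 42.2% for the 552 broad regions under 4000 bp and 28.0% for the 250 of 4000 bp or more. Replicate 2 gave 21.5%, 50.3%, 52.5%, 42.0% and 28.4%. A wide region can cover a start and still have its strongest summit over 1 kb from it. The part of length in these shares was not tested.

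Some broad regions held starts of more than 1 gene. A RefSeq start lay inside 430 of them (53.6%), against 29.3% of the narrower regions. Starts of 2 or more genes lay inside 12.7% of broad and 5.94% of narrower regions, and starts on both strands inside 11.8% and 5.58%. These shares rise with length, and the part of length was not tested. The region at RHBDF1, 8046 bp and 7240 bp wide, covered starts of 3 genes, including MPG, which encodes a DNA repair glycosylase. In the 269 broad regions with the start of a single coding gene, the region reached a median of 1638 bp upstream and 2379 bp downstream of the start. It reached further downstream than upstream in 163 of them (60.6%, 54.6 to 66.2). In the narrower regions this share was 70.8% (69.8 to 71.7).

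Away from starts, 353 broad regions had their strongest summit over 3 kb from any start of the RefSeq table in both samples. The widest of them was assigned to ENSG00000279141, at chr9:136582691-136591574, with 8834 bp and 8684 bp. A region of 8219 bp and 9136 bp near RN7SL499P lay on chromosome 2. Another of 7877 bp and 6579 bp was assigned to KLF13, a Krüppel-like factor gene, at authors' distances of -16798 bp and -18061 bp from its start, where negative is upstream. NEAT1, the RNA that builds paraspeckles, had a region of 6456 bp and 6505 bp, which the authors' annotation puts at its promoter although the table used here has no start for it.

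Broad regions had many neighbours. Within 50 kb they had a median of 8 other reproducible regions, against 4 for narrower regions, and within 10 kb a median of 2 against 1. Another broad region lay within 50 kb of 225 of them (28.1%), and 28 stretches joined 3 or more in this way. The richest held 7 broad regions over 80.4 kb from NOTCH1 through its antisense neighbour NALT1 to ENSG00000279141. A stretch of 6 over 116.7 kb lay about PTMA, which encodes prothymosin alpha. BCOR, the gene of a corepressor that works with Polycomb group proteins, had 5 over 82.0 kb on the X chromosome, the most assigned to 1 gene. NRARP, a target and inhibitor of NOTCH signalling, had 3, and another 3 lay near the miR-371 to miR-373 cluster. The percentage of reproducible regions that were broad ranged from 0.916% on chromosome 13 to 2.85% on chromosome 21.

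At the level of genes, 455 of 18840 coding genes (2.42%) had a broad region within 3 kb of a start, and 14598 had a reproducible region of any width there. Of those 14598 genes, 3.12% had a broad one. The counts in the lists that follow stand beside the 2.42%, at which a short list would often hold none. The lists hold few genes and were chosen with earlier results of these data known, so the counts are descriptions of these genes.

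Naive pluripotency genes, which are expressed in cells like those of the early epiblast, had no broad region. At the overall share of 2.42% a list of this length can hold none. Of 19 measured, 15 had a reproducible region at the start, and the median width of the widest region per gene was 1241 bp in the narrower sample. The median over all 14598 coding genes with a region was 1233 bp. DPPA5, which encodes an RNA-binding protein, had the widest by its narrower call, at 2054 bp and 2051 bp. At TFCP2L1, a transcription factor gene of the naive network, the interval was 1267 bp and 1425 bp. At KLF17, a marker of human naive cells, it was 700 bp and 631 bp.

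Genes linked with the primed state, the later state in which human embryonic stem cells are usually grown, had 5 of 21. HMX2, a homeobox gene, had a region of 4213 bp and 4348 bp with a fold enrichment of 25.8 and 25.2. TCF7L1, a repressor of WNT target genes, had 3174 bp and 3131 bp at 27.3 and 22.1. CDH2, which encodes N-cadherin, had 3437 bp and 3463 bp. ZIC5 and ZIC2, zinc finger factor genes of early neural development that lie next to each other, had regions of low fold enrichment, 6.32 and 7.78 at ZIC5 and 6.35 and 9.48 at ZIC2. The median width at the 19 primed genes with a region was 2378 bp. The samples hold no primed cells, and no expression was measured, so these widths say nothing of a change between states.

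Genes active in both pluripotent states had 3 of 21: POU5F1, LIN28A and PRDM14, a transcriptional regulator gene with 3615 bp and 3948 bp. The median width of these 21 genes was 2435 bp. NANOG, which encodes a homeobox factor, had 2242 bp and 2418 bp, and SOX2, the partner factor of OCT4, had 1129 bp and 1220 bp, with a fold enrichment of 3.69 and 3.63. LEFTY1, a NODAL antagonist gene, was wide in replicate 1 alone, at 5014 bp against 2644 bp. PODXL, a surface protein gene of pluripotent cells, had broad regions of 5530 bp and 6031 bp, and of 3660 bp and 3634 bp. The authors' distances of the first to its start were -41105 bp and -40893 bp, and no broad region lay at the start.

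Signalling genes were represented in several lists. Of 21 genes of the ERK response, 3 had a broad region: DUSP4, a phosphatase gene of the feedback on ERK, with 5725 bp and 5643 bp, SPRY4, a feedback inhibitor of receptor kinases, with 3408 bp and 4105 bp, and CCND1. The cells were grown with a MEK inhibitor, and no sample lacked it. CCND1 encodes cyclin D1, and its region was 8165 bp in replicate 1, while replicate 2 split it into wide intervals, the wider of 3794 bp. Of 38 WNT pathway genes, 4 had one. WNT3, a ligand gene, had 5990 bp and 5305 bp at a fold enrichment of 23.5 and 20.6, FZD2 and LRP5 encode receptors, and TCF7L1 is named above. Of 33 TGF-beta and BMP pathway genes, 3 had one, the ligand gene BMP4 at 3807 bp and 3913 bp, the inhibitor gene SMAD6 at 3516 bp and 3542 bp, and the corepressor gene TGIF1 at 4488 bp and 5039 bp. The NOTCH list had 3 of 22, with the receptor gene NOTCH1, the coactivator gene MAML3 and the target gene HES4. The FGF list had 3 of 20: FGF19, FGF11 and the receptor gene FGFR3.

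Among chromatin regulators, counts differed by list. Of 30 Polycomb and trithorax genes, 5 had a broad region. KDM2B, which encodes the CXXC protein that takes a variant Polycomb complex to CpG islands, had 5532 bp and 5376 bp. PCGF2, a ring finger subunit gene, had 3986 bp and 3895 bp, KMT2B, a histone H3 methyltransferase gene, had 4029 bp and 3577 bp, and CBX8 and PHC1 encode further Polycomb subunits. None of 20 genes of coactivators and acetyltransferases had one. EP300 itself had 2203 bp and 3008 bp, and CITED2, which encodes a protein that binds EP300, had 3441 bp and 2984 bp at a fold enrichment of 30.4 and 26.0. Both were thus wide in 1 sample only.

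Lineage and control lists had counts of 0 to 2. Trophectoderm had 1 of 20 (KRT18), neuroectoderm 1 of 24 (SOX21), mesoderm 2 of 21 (LHX1 and WNT3) and primitive endoderm 0 of 18. The fibroblast list, a check on the feeder cells' type, had 1 of 16, TWIST2, with 3318 bp and 3222 bp. Feeder cells are from mouse and peaks give no RNA level, so the labelled cell type was not checked here by expression. Housekeeping genes had 2 of 25, ACTB and YWHAZ. The list of O-GlcNAc cycling and the hexosamine pathway had 1 of 14, HCFC1, whose product is a host cell factor cut by O-GlcNAc transferase, with 3365 bp and 3872 bp. Among families, the shares were highest where few genes were measured: 2 of 5 genes of the sine oculis homeobox family (SIX4 and SIX5), 2 of 5 ZIC genes (ZIC2 and ZIC5) and 2 of 8 LHX genes (LHX1 and LHX4) had a broad region. The count was 1 of 18 KLF genes, 1 of 19 SOX genes and 1 of 89 keratin-associated protein genes. None was found at 14 NKX, 13 TBX, 9 PAX, 6 IRX, 6 GATA and 5 TFAP2 genes, or at 320 olfactory receptor genes. Likewise 0 of 79 cytosolic ribosomal protein genes, 0 of 68 replication-dependent histone genes, 0 of 48 clustered protocadherin genes and 0 of 24 HOX genes had one. A reproducible region of any width lay at a start of only 9 of the 320 olfactory receptor genes. The same held for 6 of the 24 HOX genes and 26 of the 48 protocadherin genes. Of 470 ZNF genes 9 had a broad region (1.91%), and of 43 FOX genes 4 had a broad one, FOXD3, FOXO3, FOXP4 and FOXL2.

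The promoter windows differed in base composition. CpG observed over expected compares the CG dinucleotides of a window with the number its C and G content would give. In 459 windows of coding genes whose start lay inside a broad region the median was 0.783 (quartiles 0.592 and 0.920). It was 0.840 in 13416 windows inside narrower regions and 0.738 in all 22132 coding windows. It was 0.253 in 5897 windows with no reproducible region within 3 kb. Within the broad regions the median was 0.787 below 4000 bp (337 windows) and 0.759 at 4000 bp or more (122 windows). A ratio of 0.6 or more was reached by 76.9% and 64.8% of these. In regions that were not broad the shares were 80.7% below 1000 bp, 88.2% from 1000 bp to 2 kb and 83.5% in wider ones. PIPOX at 0.247 and SPHK1 at 0.973, both printed above, show how far single windows differ. The windows come from 22 of the 23 chromosomes examined. Several windows can belong to 1 gene, so they are not independent.

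**Figure D4:**
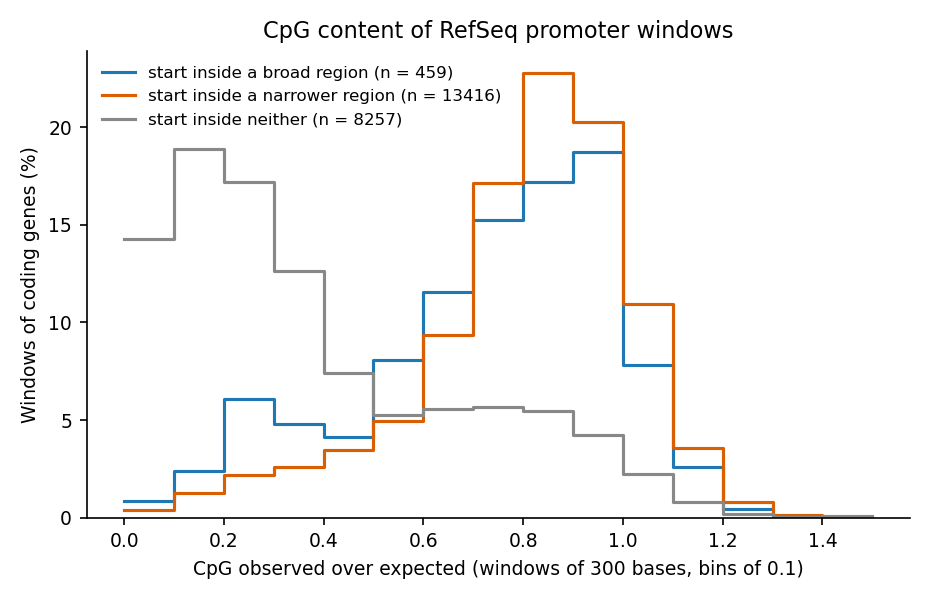
Distribution of CpG observed over expected (horizontal axis, bins of 0.1) in RefSeq promoter windows of coding genes, as a percentage of the windows in each group (vertical axis). Blue is 459 windows with the start inside a broad region, orange 13416 inside a narrower reproducible region and grey 8257 inside neither; the blue line lies above the orange one below 0.7.

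Short motifs were searched on both strands of the same coding windows. CCGGAAGT, a sequence bound by ETS family factors, was present in 7 of 459 windows in broad regions (1.53%, Wilson 95% interval 0.741 to 3.11). It was present in 1024 of 13416 windows in narrower regions (7.63%, 7.20 to 8.09) and in 5.35% of all coding windows. By width, the share was 8.81% in regions below 1000 bp, 7.93% from 1000 bp to 2 kb and 3.42% in wider regions that were not broad. In broad regions it was 1.78% of 337 windows under 4000 bp and 0.820% of 122 windows at 4000 bp or more. These shares of broad regions rest on the 7 windows given above. CCAAT, the letters of the NF-Y site, was present in 22.7% (19.1 to 26.7) of windows in broad and 31.5% (30.7 to 32.3) in narrower regions, and in 34.6% of all. GGGCGG, a GC box bound by SP1, was present in 74.3%, 73.9% and 56.3%, and TATAAA in 4.14%, 4.25% and 9.46%. TGACGTCA, the full cyclic AMP response element, was present in 6 of 459 windows (1.31%) and in 374 of 13416 (2.79%), and in 2.26% of all. A match shows only that the letters stand in the window, and the part of CpG content in these shares was not tested. Among the named regions the windows at HMX2 and at B3GNT7, a glycosyltransferase gene, held CCAAT and GGGCGG, and that at VENTX, a homeobox gene, held TATAAA and GGGCGG.

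**Figure D5:**
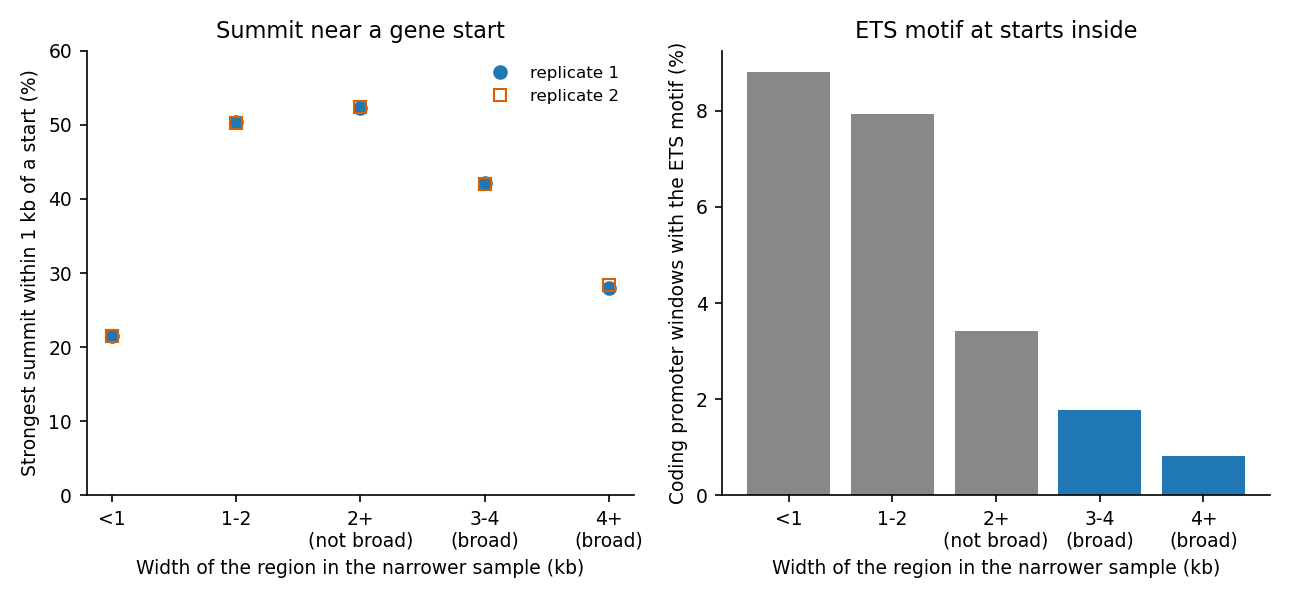
Left, share of reproducible regions whose strongest summit lay within 1 kb of a RefSeq start (vertical axis, %) by the width of the region in the narrower sample (horizontal axis, kb), in replicate 1 (filled circles) and replicate 2 (open squares). Right, share of coding promoter windows inside the regions that hold CCGGAAGT on either strand (vertical axis, %), with broad regions in blue. The share falls from 8.81% to 0.820%, but the shares of broad regions rest on 7 of 459 windows. The left panel is highest, 52.3% and 52.5%, just below the broad class.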

How the data were processed

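EP300 ChIP-seq peaks of H9 cells were taken from 1 deposited table for each of 2 EP300 samples; the input sample was not analysed here separately. Per the file headers, each row holds a signal value, the authors' fold enrichment (a ratio), and a −log10 p-value and −log10 q-value; the deposited score was 10 times the latter and was not used. Per the file headers, rows also give positions, annotation and gene. The submitters' processing notes name fastp 0.19.11 and GRCh38; for aligner, peak caller, threshold and duplicate handling, a name is not given in the sources used here. Read depth is unknown. The members and gene lists were chosen with earlier results of these data known.

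Rows were joined and overlapped with Python 3.11.15, pandas 2.3.3 and numpy 2.4.6, and the overlap code was checked on simulated intervals. A region's fold enrichment is its highest summit. Starts and windows came from RefSeq GRCh38.p14: 15812 coding genes had table starts, 3028 took the 5′ end by the authors' strand, and 1134 were left out. Promoter windows, non-coding starts and microRNAs of chromosome 8 were not used here; its coding starts are such 5′ ends. Wilson intervals came from statsmodels 0.14.6. The named regions are the widest 20, highest fold 10, most summits 5, widest distal 10, those at the limit and up to 6 per list; other genes were chosen after their values were seen.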

Additional observations from a re-analysis of the deposited data

How the results depend on the processing

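The number of broad regions follows the width limit: 802 at 3000 bp became 1569 at 2500 bp and 250 at 4000 bp, and 1150 to 1300 when 1 sample alone decided. It stayed within 1.5 times when intervals had to overlap by 50% (789), to reach a −log10 q-value of 5 (802) or to reach a fold enrichment of 5 (792). The share with the authors' promoter class was 72.6% ± 0.265 (SD, n = 2). Both values annotate the same 802 regions, so this SD is not a spread between independent sets. The share was 73.8% at 2500 bp, 69.4% at 4000 bp and 68.7% to 70.6% from 1 sample. It was 59.4% for any RefSeq start within 3 kb of the region, and 53.7% for the strongest summit within 3 kb of one, an alternative chosen after seeing the data. The share of coding genes, 2.42%, was 4.85% at 2500 bp, 0.669% at 4000 bp, 3.15% to 3.50% from 1 sample and 2.11% where the start had to lie inside. The median CpG observed over expected of windows of all genes, coding or not, within 3 kb of a broad region was 0.705. It was 0.641 at 4000 bp and 0.735 for starts inside, where the coding windows alone had 0.783. The causes of these shifts were not tested, beyond the larger or smaller set that each limit takes. No paired analysis was possible because only the EP300 group has numbered samples. Without counts, no depth limit can be given, and 2 samples allow no test of a single region.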
